A study of Mus musculus with 3 samples.

Results

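Mouse embryonic stem cells carrying an introduced Lef1 gene were compared with cells carrying the empty vector, both collected 2 passages after the vector went in. The cells were of the 46C line of strain 129, which holds a fluorescent reporter at the Sox1 locus, and all cultures grew on gelatin in medium with serum and leukemia inhibitory factor, which keeps stem cells undifferentiated. The 2 libraries of passage 2 were taken by their labels, empty vector (PB) and PB-Lef1 P2, out of 3 libraries in all. They are called vector P2 (the empty vector) and Lef1 P2 here, and the remaining library is PB-Lef1 at passage 5 (Lef1 P5), for which no vector control of the same passage was analysed here. Whether a culture came from a single clone, which promoter drove Lef1, and what share of the cells carried it are points not stated in the labels.

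Lef1 is a DNA-binding factor of the TCF/LEF family. It has little activity alone, and recruits beta-catenin to target genes when Wnt signals stabilise that protein, or repressors when they do not. Gata4, Gata6 and Sox17 are the factors that specify primitive endoderm, the layer of the early embryo that gives rise to parietal endoderm, which secretes the thick basement membrane of the yolk sac, and to visceral endoderm, which takes up and breaks down maternal nutrients.

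Each group has n = 1 library of total RNA, so no test was run and genes are ranked by size alone. The 3 libraries, in the order vector P2, Lef1 P2 and Lef1 P5, held 9225401, 9170554 and 9380813 expected reads. Levels are FPKM, fragments per kilobase of transcript, scaled for library size. Intervals in parentheses are exact 95% Poisson intervals for counting error. They leave out differences between cultures, and amplified reads without molecular tags are not independent molecules. A gene was called higher or lower at a 2-fold difference on the log2(FPKM + 1) scale, if the higher of the libraries had 3 FPKM or more and at least 20 expected reads. Folds are ratios of FPKM values with no pseudocount.

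Lef1 (Entrez gene 16842) was checked first. It had 48 expected reads and 1.49 FPKM (1.10 to 1.98) in the vector cells against 3585 reads and 135 FPKM (131 to 139) in Lef1 P2. That is 90.6-fold (68.2 to 123) and the top of the ranking, the direction its label states. The deposited length of Lef1 was 3549 bases in one library and 2955 in the other, so the FPKM ratio exceeds the ratio of reads. Reads from the introduced copy and from the cells' own Lef1 gene fall on the same row of the table.

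Of 10651 genes that met the minimum, 691 (6.49%) were called higher in Lef1 P2 and 194 (1.82%) lower, together 8.31%. Counting intervals of the 2 libraries lay apart for 689 and 193 of these. That largely follows from the call rule and does not set called genes apart. Uncalled genes near the threshold, such as Tap1 and Tubb3, had intervals apart too, and the share over all genes was not counted. The called higher genes had a median of 3.14 FPKM in the vector cells and 10.3 FPKM in Lef1 P2, with a median fold of 3.08. Called lower genes started higher, at a median of 16.9 FPKM, and ended at 6.04 FPKM, a median 2.69-fold lower. Part of that contrast is set by the rule, since the minimum applies to the higher library only. Lower genes had to start at 3 FPKM or more in vector P2, and higher genes did not. In the library that had to meet the minimum, the medians were 10.3 FPKM for higher genes and 16.9 FPKM for lower genes. The higher side also had the longer tail: 106 genes were higher by at least 4-fold on the log2(FPKM + 1) scale and 9 were lower by as much. In the vector library 113 of the 691 higher genes lay under 1 FPKM, 444 between 1 and 10 FPKM, and 6 at 100 FPKM or above. Of the 194 lower genes, 33 began at 100 FPKM or above.

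The plot of both libraries shows this shape.

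**Figure D1:**
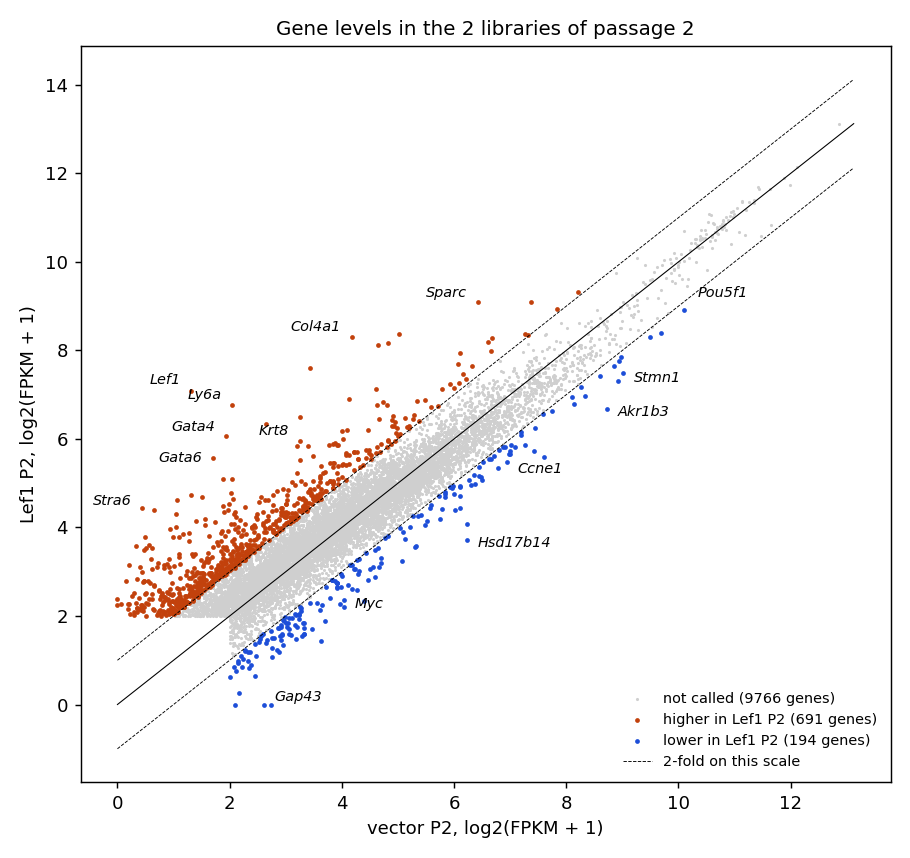
Each point is 1 of the 10651 genes that met the minimum, with its level in vector P2 on the horizontal axis and in Lef1 P2 on the vertical axis, both as log2(FPKM + 1). The 691 genes called higher spread far above the dashed 2-fold line at low starting levels, and the 194 called lower stay close to the lower dashed line.

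The split of the calls depended on the scaling between libraries. With the deposited FPKM 78.1% of the called genes were higher, with median-of-ratios rescaling 62.9% (505 higher, 298 lower) and with TMM rescaling 62.4% (500 higher, 301 lower). All 505 and all 500 were among the 691. Over the 12780 genes measured at 1 FPKM or more in either library the median log2 ratio was 0.12 as deposited, and each rescaling moved it by -0.14. List medians below are as deposited and read against that 0.12. Counts of called members are read against 6.49% higher and 1.82% lower over all genes. No list count was tested against those shares, and a small count near them describes its members only. Near the threshold, Mmel1 (1.69 FPKM in vector P2, 4.38 FPKM in Lef1 P2) was just called higher and Tap1 (5.54 and 12.06 FPKM) was not. On the lower side Pcyt1b (13.1 and 6.06 FPKM) was just called and the neuronal tubulin gene Tubb3 (27.3 and 13.2 FPKM) was not.

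Marker genes of the labelled cell type were present in both libraries. The 5 stem cell markers Pou5f1, Sox2, Nanog, Zfp42 and Esrrb summed to 2053 FPKM in vector P2 and 1476 FPKM in Lef1 P2, and 0 of the 5 were called. The 7 primitive endoderm markers summed to 10.7 and 183 FPKM, all 7 were called higher, and 3 of them reached 1 FPKM in the vector cells against 7 in Lef1 P2. Other cell types a culture could hold were checked with their own markers. The 7 fibroblast markers summed to 17.2 and 10.5 FPKM, of which Thy1 alone made up 15.7 and 9.54 FPKM, with Col3a1, Postn and Lum at 0 in both. The 7 blood and endothelial markers summed to 20.5 and 28.04 FPKM. Runx1 was the one called, Pecam1 held 18.1 and 19.2 FPKM, and Ptprc and Hbb-bh1 were at 0 in both. The 5 neural markers summed to 31.1 and 16.9 FPKM, of which Tubb3 alone made up 27.3 and 13.2 FPKM, and 0 of the 5 were called. In a culture sampled as bulk RNA, fewer cells of a type and less RNA per cell cannot be told apart.

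Several endoderm transcription factors were far above the vector level in Lef1 P2. Of 20 listed, 15 were measured and 10 met the minimum, of which 7 were called higher, 0 lower and 3 not. The median log2 ratio of the measured members was 0.83. Foxa2, a forkhead factor of gut and visceral endoderm, had 5 reads and 0.27 FPKM (0.0877 to 0.630) in the vector cells and 113 reads and 6.13 FPKM (5.05 to 7.37) in Lef1 P2, 22.7-fold (9.45 to 71.3). Sox7, a close relative of Sox17, was at 0.88 and 7.65 FPKM, 8.69-fold (5.78 to 13.6). Both were under 1 FPKM in vector P2, so their folds carry wide intervals. Among the 40 highest ratios of all genes was a further forkhead gene, Foxq1, at 1.49 FPKM (1.05 to 2.05) and 25.8 FPKM (23.9 to 27.9), 17.3-fold. Gata4 exceeded Gata6 by 1.26 times in the vector cells and 1.43 times in Lef1 P2, at 66.0 and 46.3 FPKM in the latter.

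Other endoderm factors stayed inside the threshold. Klf5, which acts in both stem cells and trophoblast, was the most abundant listed factor, at 94.9 and 122 FPKM, and was not called. Hhex, an anterior visceral endoderm homeobox gene, was at 3.10 and 4.59 FPKM. Hnf4a, the nuclear receptor that drives visceral endoderm and liver genes, was at 2.13 and 4.55 FPKM. Gata6os, an RNA listed next to Gata6, went from 3 to 64 reads (0.48 to 11.1 FPKM). The labels do not say whether counting used strand, so its reads cannot be told from those of Gata6.

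Genes that mark parietal endoderm showed the highest median of the 42 lists, 2.87, with 12 of 14 members that met the minimum called higher and 0 lower. Most of the 12 are counted again in lists below, which are therefore not separate results. Col4a1, Col4a2, Lama1, Lamb1 and Sparc are also basement membrane members, and Serpinh1 is a collagen folding member. Srgn recurs with proteoglycans, Krt8 and Krt18 with keratins and trophoblast genes, Pdgfra with FGF and PDGF genes, and Snai1 with adhesion genes. Pth1r, the receptor for parathyroid hormone-related peptide, had 22 reads and 1.09 FPKM (0.683 to 1.65) in vector P2 against 473 reads and 23.4 FPKM (21.4 to 25.6) in Lef1 P2, 21.5-fold (14.0 to 34.6). Srgn, the core protein of the secretory granule proteoglycan serglycin, was at 5.30 FPKM (3.84 to 7.14) and 79.5 FPKM (73.5 to 85.9), 15.0-fold (11 to 20.9). Snai1, a zinc-finger repressor of epithelial genes, went from 12 to 114 reads, 9.54-fold (5.25 to 19). The intermediate filament gene Vim, which parietal endoderm also uses, was not called, with 98.4 FPKM in vector P2 and 54.1 FPKM in Lef1 P2. Thbd, a thrombin receptor gene and a common parietal marker, read 0.18 and 0.54 FPKM, below the minimum, and Plat, the tissue plasminogen activator gene, 0.39 and 1.18 FPKM.

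Visceral endoderm genes gave a mixed result. Of 29 listed, 18 were measured and 15 met the minimum, with 6 called higher, 1 lower and a median of 0.90. The receptor and its parts were among the 6. Cubn, the endocytic receptor cubilin, had 280 reads and 2.68 FPKM (2.38 to 3.01) in vector P2 against 3416 reads and 33.0 FPKM (31.9 to 34.1) in Lef1 P2, 12.3-fold. Amn, whose protein amnionless carries cubilin to the membrane, was at 2.33 FPKM (1.62 to 3.24) and 16.5 FPKM (14.5 to 18.6). Dab2, the adaptor that links such receptors to clathrin, was at 2.99 and 22.07 FPKM, 7.38-fold. Lrp2, the megalin receptor that works with cubilin, was 7.83 and 11.01 FPKM and was not called. The homeobox gene Rhox5 was at 16.6 and 118 FPKM, and Bmp2, a signal that visceral endoderm sends, went from 7 to 98 reads. Habp2 was the remaining higher member, at 0.26 and 3.92 FPKM, from 5 and 74 reads. Several genes for plasma proteins of mature visceral endoderm were not called. Afp and Ttr were at 0 in all 3 libraries, Apoa1 was at 0.12 and 0.24 FPKM, and Apob at 0.09 and 0.02 FPKM. Low levels were read for the retinol carrier gene Rbp4, at 2.86 and 3.27 FPKM, and for the transferrin gene Trf, at 6.33 and 8.30 FPKM. Apoe was at 471 and 862 FPKM and was not called. Emb, an immunoglobulin-family membrane protein gene, was the lower member, at 40.2 and 18.1 FPKM.

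The plot of the 40 highest and 30 lowest ratios gives each level with its counting interval.

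**Figure D2:**
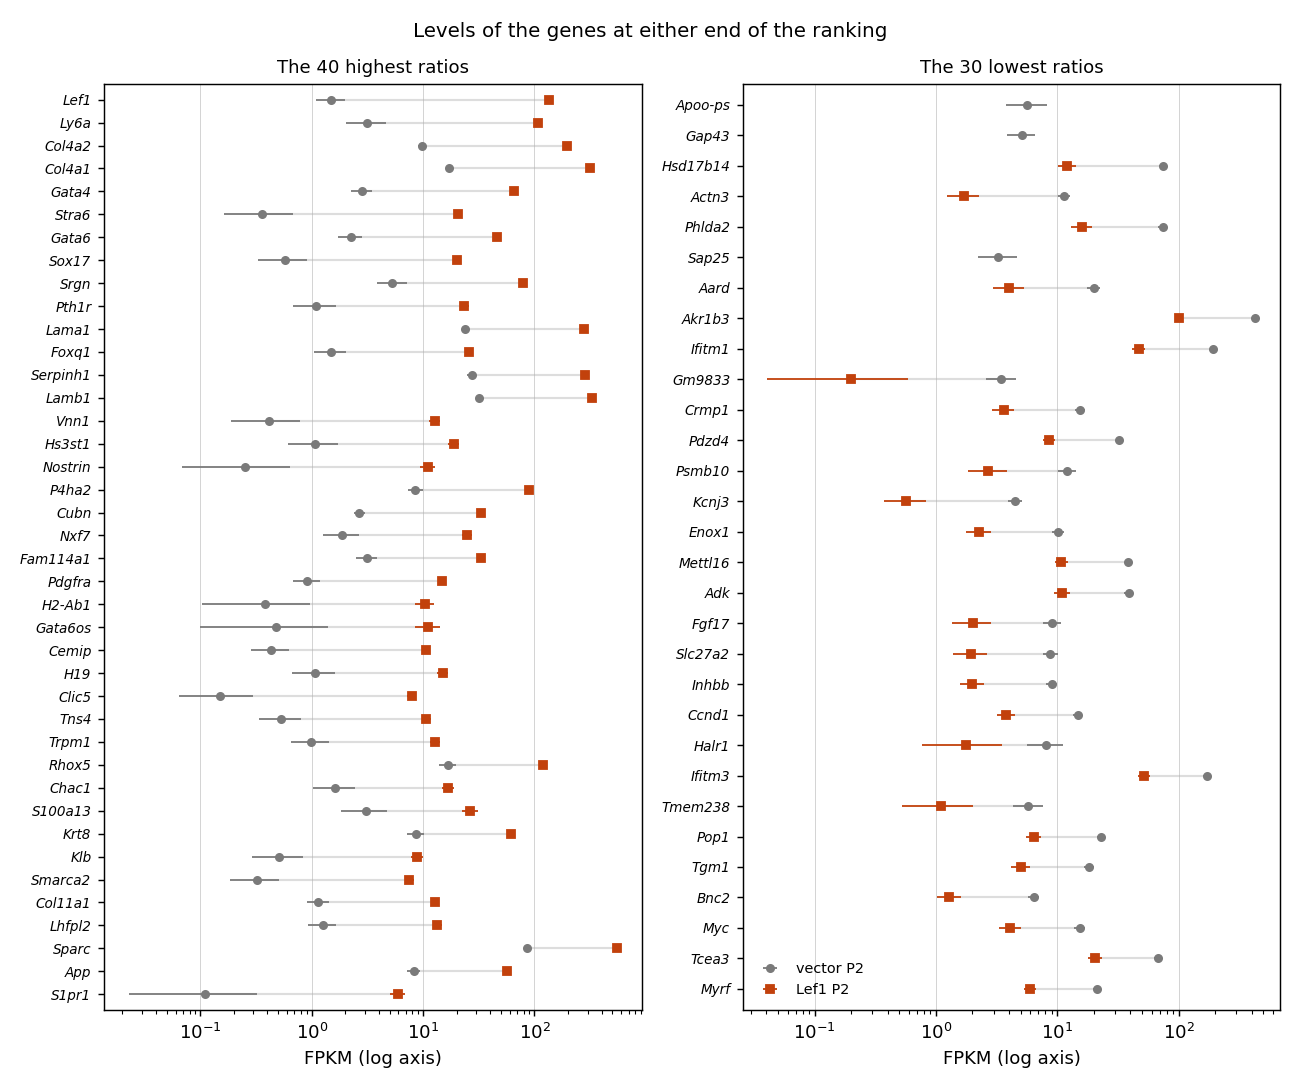
Levels in vector P2 (grey circles) and Lef1 P2 (red squares) on a log FPKM axis for the genes with the 40 highest ratios (left) and the 30 lowest (right) among called genes, with 95% counting intervals as bars. Genes without a square were not listed in Lef1 P2. On the left the empty-vector levels run from 0.11 FPKM (S1pr1) to 85.2 FPKM (Sparc).

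Sequences upstream of transcript starts are printed for 5 called genes, chosen after their values and motifs were seen, to show what the ranking holds at the promoter: 4 strongly higher genes of different roles and, as a contrast, the lower gene Tmsb4x, which encodes an actin-binding peptide (486 and 158 FPKM). Each is the 250 bases before the start, 5′ to 3′ on the gene's strand, from RefSeq with GRCm38.p6 coordinates. Capitals mark a TCF/LEF motif, CTTTGA or TCAAAG on the other strand, or a GATA motif, AGATAA or TGATAA, with TTATCT or TTATCA on the other strand. Positions count bases before the start. Cubn is on the minus strand at chr2:13491877-13492126, with TCAAAG at 204 and 36. Nostrin is on the plus strand at chr2:69135550-69135799, with TCAAAG at 162 and CTTTGA at 12. Krt8 is on the minus strand at chr15:102004343-102004592, with AGATAA at 239. Lamb1 is on the plus strand at chr12:31265043-31265292 and holds neither motif. The windows of Col4a1 and Col4a2, read but not printed, hold neither motif as well. Tmsb4x is on the minus strand at chrX:167209219-167209468, with TTATCA at 242, TGATAA at 189 and TCAAAG at 108.
Cubn: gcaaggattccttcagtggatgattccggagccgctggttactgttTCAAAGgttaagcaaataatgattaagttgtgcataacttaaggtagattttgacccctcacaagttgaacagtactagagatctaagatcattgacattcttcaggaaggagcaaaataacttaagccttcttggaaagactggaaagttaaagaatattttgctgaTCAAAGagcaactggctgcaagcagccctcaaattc
Nostrin: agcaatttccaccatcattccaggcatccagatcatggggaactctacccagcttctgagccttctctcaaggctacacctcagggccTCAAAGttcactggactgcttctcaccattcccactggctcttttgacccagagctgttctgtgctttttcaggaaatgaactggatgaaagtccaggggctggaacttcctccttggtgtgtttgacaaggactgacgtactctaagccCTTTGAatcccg
Krt8: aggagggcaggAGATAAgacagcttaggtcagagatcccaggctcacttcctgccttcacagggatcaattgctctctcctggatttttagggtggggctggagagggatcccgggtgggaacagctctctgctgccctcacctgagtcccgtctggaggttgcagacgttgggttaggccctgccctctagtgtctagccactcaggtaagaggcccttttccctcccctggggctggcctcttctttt
Lamb1: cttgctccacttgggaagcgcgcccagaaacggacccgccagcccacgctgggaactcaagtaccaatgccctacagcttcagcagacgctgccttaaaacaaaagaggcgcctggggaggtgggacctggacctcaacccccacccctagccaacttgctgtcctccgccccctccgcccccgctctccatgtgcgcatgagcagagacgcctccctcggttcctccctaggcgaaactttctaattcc
Tmsb4x: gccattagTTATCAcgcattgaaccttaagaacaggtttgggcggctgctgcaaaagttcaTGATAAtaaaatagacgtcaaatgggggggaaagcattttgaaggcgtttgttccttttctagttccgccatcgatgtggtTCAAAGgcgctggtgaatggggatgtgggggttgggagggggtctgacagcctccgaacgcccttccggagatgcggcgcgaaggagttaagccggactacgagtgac

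Such short motifs were common. One or more GATA motifs stood in 16.6% of all 32851 promoters in the table and a TCF/LEF motif in 13.8%. For genes that met the minimum the shares were 8.51% and 10.2%, for called higher genes 9.89% and 11.8%, and for called lower genes 14.1% and 14.1%. The 26 promoters of the 16 genes that were higher by at least 8-fold on the log2(FPKM + 1) scale had 15.4% for each, from windows of several starts per gene. Base composition differed as well, with a median GC content of 60.4% for genes that met the minimum, 59.6% for higher genes and 55.6% for lower genes. The table held a promoter for 691 of the 885 called genes. A match describes these letters only and shows no binding.

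Basement membrane genes combined large ratios with high levels. In the basement membrane list 9 of 18 members that met the minimum were called higher and 1 lower, with a median of 0.52 over 21 measured. The summed level of all 30 listed genes was 885 FPKM in vector P2 and 2730 FPKM in Lef1 P2. The 3 chains of laminin-111, the laminin of the embryo's first basement membranes, started at unequal levels. In the vector cells Lama1 had 24.0 FPKM (23.0 to 25), Lamb1 31.6 FPKM (30.1 to 33.2) and Lamc1 96.5 FPKM (94.2 to 98.9). In Lef1 P2 they stood within 1.19 times of each other, at 277 FPKM (274 to 281), 330 FPKM (325 to 335) and 292 FPKM (288 to 296). The Lamb1 to Lamc1 ratio was thus 0.327 in vector P2 and 1.13 in Lef1 P2. By contrast the 2 chains of type IV collagen kept nearly the same proportion, with Col4a1 at 1.75 times Col4a2 in vector P2 and 1.62 times in Lef1 P2. The transcript starts of these genes lie 21 bases apart on opposite strands in GRCm38.p6. The 2 transcripts overlap there, so the window before each start lies within the other gene.

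Among the other basement membrane genes called higher, Hspg2, which encodes the heparan sulfate proteoglycan perlecan, was at 73.4 and 163 FPKM, 2.22-fold (2.17 to 2.28). Lamb2, the beta chain of later laminins, was at 12.8 and 32.3 FPKM. Tinagl1, a secreted matrix protein gene, was at 1.60 and 9.59 FPKM. The linker genes Nid1 (36.5 and 52.9 FPKM) and Nid2 (105 and 155 FPKM) and the fibronectin gene Fn1 (166 and 175 FPKM) were not called. Col18a1, the collagen XVIII gene, was the only member called lower, at 99.5 FPKM (96.7 to 102) and 45.6 FPKM (43.7 to 47.6). Of 13 receptors for matrix proteins that met the minimum 0 were called higher, a count that 13 members cannot set apart from the 6.49% of all genes. The list's median was -0.10, and Itgb1, the shared integrin beta 1 chain, was at 48.6 and 45.4 FPKM. Itga9 was the receptor called lower (3.43 and 0.97 FPKM).

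Of 16 genes for collagen folding and cross-linking that met the minimum 6 were called higher, 1 lower and 9 not, with a median of 0.78. Serpinh1, the collagen chaperone Hsp47, was at 27.3 FPKM (25 to 29.6) and 287 FPKM (280 to 295). P4ha2, a catalytic subunit of prolyl 4-hydroxylase, was at 8.53 FPKM (7.31 to 9.89) and 88.7 FPKM (84.7 to 92.9), 10.4-fold (8.90 to 12.2). The sister subunit P4ha1 differed less, at 16.0 and 72.2 FPKM, 4.53-fold. The partner subunit P4hb, also the general disulfide isomerase, was at 153 and 331 FPKM, 2.17-fold (2.08 to 2.26). In vector P2 the level of P4ha1 was above that of P4ha2, and in Lef1 P2 it was below. Among lysyl hydroxylases Plod2 was called (34.04 and 87.9 FPKM), whereas Plod1 (19.9 and 35.0 FPKM) and Plod3 (21.9 and 29.02 FPKM) were not. Fkbp10, a collagen prolyl isomerase gene, was lower at 15.0 and 6.43 FPKM.

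Vesicle genes of the early secretory route lay above the vector level almost throughout. Of 40 listed, all 40 were measured, 39 met the minimum, 10 were called higher and 0 lower. The ratio was above 0 in 38 of the 40, against 59.6% of all measured genes, and the median was 0.71. Coat proteins of the vesicles that leave the endoplasmic reticulum were Sec23a, at 27.2 and 61.5 FPKM, Sec24a, at 8.22 and 22.6 FPKM, and Sec24d, at 13.3 and 31.8 FPKM. Creb3l2, a membrane-bound factor known for activating Sec23a in collagen-secreting cells, had 115 reads in vector P2 and 628 in Lef1 P2, 3.82 FPKM (3.15 to 4.59) against 21.0 FPKM (19.4 to 22.7). It was 5.50-fold higher (4.50 to 6.77), against 2.26-fold (2.10 to 2.44) for Sec23a. The 3 KDEL receptor genes, which return escaped chaperones, were all called, with Kdelr1 at 28.6 and 77.05 FPKM, Kdelr2 at 38.2 and 92.2 FPKM and Kdelr3 at 40.3 and 84.1 FPKM. Surf4, a cargo receptor, was at 39.5 and 115 FPKM. Copz2, a coat subunit of the return vesicles, was at 3.21 and 18.7 FPKM. Sec61b, the translocation channel subunit, was level at 144 and 140 FPKM.

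Chaperones of the endoplasmic reticulum differed by less than the vesicle genes. Of 25 that met the minimum 5 were called higher and 0 lower, with a median of 0.44, and 23 of 25 ratios were above 0. With median-of-ratios rescaling 3 were called. The abundant chaperones Hsp90b1 (374 and 479 FPKM), Calr (299 and 395 FPKM) and Hspa5 (225 and 297 FPKM) were not called. Herpud1, which serves the disposal of misfolded proteins, was at 4.60 FPKM (3.63 to 5.75) and 18.7 FPKM (16.7 to 20.9). Pdia5, a disulfide isomerase gene, was at 11.7 and 36.4 FPKM and the oxidase gene Ero1a at 21.4 and 50.2 FPKM. In the list for the integrated stress response 3 of 33 (9.09%) were called higher and 2 (6.06%) lower, with a median of 0.29. Over all genes the shares were 6.49% and 1.82%. Slc1a4, a neutral amino acid transporter gene, was the largest after Chac1 and Ddit3, at 5.82 and 25.7 FPKM. The 2 lower members were also transporter genes, Slc7a11 (91.0 and 43.5 FPKM) and Slc7a3 (68.0 and 25.3 FPKM). Atf4, the response's main factor, was at 85.6 and 163 FPKM and Asns, the asparagine synthetase gene, at 171 and 226 FPKM, and neither was called.

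Lysosomal and endocytic genes were mostly above the vector level, with 33 of 36 ratios above 0. Among 36 members that met the minimum 11 were called higher, 30.6% against 6.49% of all genes, and 0 lower, with a median of 0.68. Median-of-ratios rescaling left 8 higher and 1 lower. Lrpap1, the chaperone that escorts megalin and related receptors, was at 23.4 FPKM (21.6 to 25.3) and 139 FPKM (135 to 144), 5.95-fold (5.46 to 6.49). Cathepsin genes, which encode lysosomal proteases, included Ctsl at 99.5 and 254 FPKM, Ctsh at 3.24 and 12.3 FPKM, and Ctsc at 6.59 and 19.4 FPKM. The most abundant cathepsin, Ctsd, was at 169 and 256 FPKM and was not called. Hexa, a hexosaminidase subunit gene, was at 24.2 and 87.04 FPKM, 3.60-fold. Cd63, a membrane protein of late endosomes, was at 66.3 and 206 FPKM. Npc1, which exports cholesterol from lysosomes, was at 5.82 and 13.9 FPKM. The membrane protein gene Lamp2 was called (15.8 and 32.9 FPKM) and its relative Lamp1 was not (159 and 282 FPKM).

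The plot of matrix, secretion and uptake genes sets these 4 groups side by side.

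**Figure D3:**
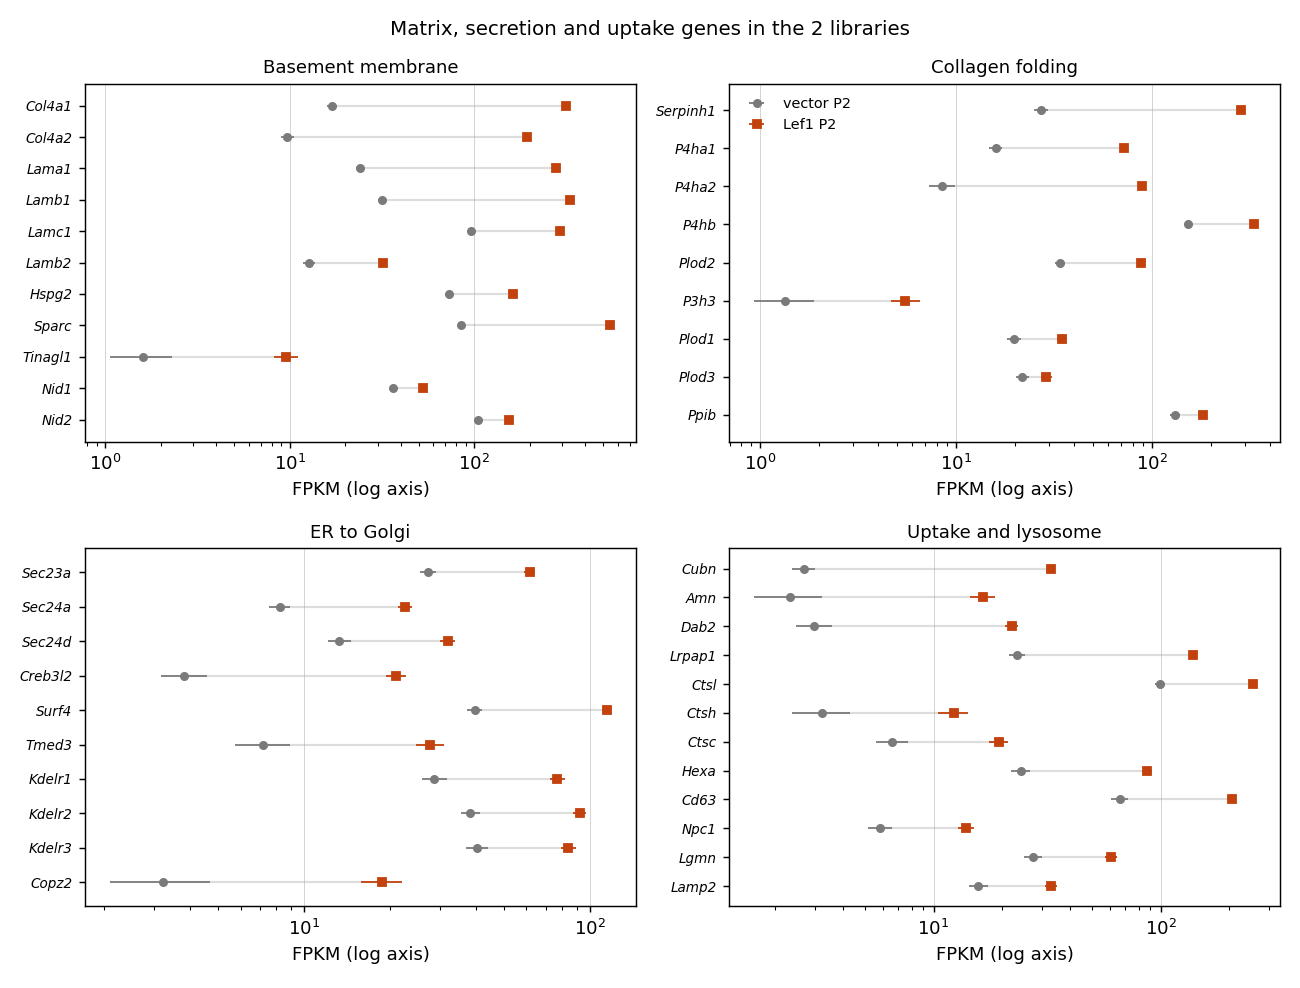
Levels in vector P2 (grey circles) and Lef1 P2 (red squares) with 95% counting intervals, on log FPKM axes, for genes of the basement membrane, collagen folding, transport from the endoplasmic reticulum (ER) to the Golgi, and uptake and the lysosome. Every gene drawn lies to the right in Lef1 P2, among them Col4a1 (17.04 and 316 FPKM) and Sec23a (27.2 and 61.5 FPKM). Nid1, Nid2, Plod1 and Plod3, drawn but not called, differ by less than Sec23a. The genes were picked after their values had been seen, as members called higher and a few not called, and the members called lower, Col18a1 and Fkbp10, are not drawn.

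Proteoglycan genes were called in both directions. In the heparan sulfate list 3 of 14 were called higher and 1 lower, with a median of 0.31, and 1 was higher after median-of-ratios rescaling. Sdc4, the syndecan-4 gene, was at 46.9 and 105 FPKM, and Gpc3, the glypican-3 gene, at 19.8 and 41.6 FPKM. Sulf1, which trims sulfate from heparan sulfate outside the cell, was lower, at 8.94 FPKM (8.06 to 9.89) and 2.60 FPKM (2.13 to 3.14), while its sister Sulf2 was at 35.1 and 43.9 FPKM. Hs3st1, a heparan sulfate sulfotransferase gene among the 40 highest ratios, had 16 reads and 1.07 FPKM in vector P2. In Lef1 P2 it had 281 reads and 18.9 FPKM, 17.6-fold (10.7 to 31.3). Proteases and inhibitors were called in 1 direction, with 7 of 22 higher and 0 lower, and a median of 0.65. Cst3, the secreted cathepsin inhibitor cystatin C, was at 67.6 and 244 FPKM. Htra1, a secreted serine protease gene, was at 21.2 and 72.2 FPKM, and Adamts9, a matrix metalloprotease gene, at 2.58 and 13.6 FPKM. Furin, the convertase that trims many secreted precursors, was at 7.66 and 19.2 FPKM.

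Keratins of simple epithelia were among the higher genes for cell shape. Of 12 intermediate filament genes 6 were called higher and 1 lower, with a median of 0.80. Krt8, whose upstream bases are also printed, was at 8.55 FPKM (7.18 to 10.1) and 61.3 FPKM (57.6 to 65.3), 7.17-fold (6 to 8.64). Its partner Krt18 was at 11.2 and 34.8 FPKM, so that Krt8 stood at 0.762 times Krt18 in the vector cells and 1.76 times in Lef1 P2. Krt19 was at 7.09 and 25.8 FPKM and Krt7 at 1.68 and 7.01 FPKM. The other higher members were the muscle filament gene Des, at 4.39 and 13.9 FPKM, and Nes, a filament gene of neural progenitors, at 2.20 and 5.50 FPKM. Krt42 was lower, at 11.3 and 3.38 FPKM. Among 19 adhesion genes, with a median of 0.43, 3 were called higher, Snai1, Twist1 and Cldn7, and 1 was called after median-of-ratios rescaling. The E-cadherin gene Cdh1 was at 81.6 and 78.9 FPKM and was not called. In the actin list 2 of 18 (11.1%) were higher and 1 (5.56%) lower, against 6.49% and 1.82% of all genes. The list's median was -0.08. Anxa2, a membrane-binding annexin gene, was at 28.7 and 85.6 FPKM.

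The retinoid list held opposite extremes. Stra6, the membrane receptor that takes up retinol from its carrier protein, had 9 reads and 0.36 FPKM (0.165 to 0.683) in vector P2 against 531 reads and 20.6 FPKM (18.9 to 22.5) in Lef1 P2, 57.3-fold (29.9 to 126). Rarg, the retinoic acid receptor gamma gene, was lower, at 52.5 FPKM (49.7 to 55.4) and 17.4 FPKM (15.8 to 19.1), 3.01-fold (2.70 to 3.37). Crabp2, which carries retinoic acid to the receptor, was also lower, with 70 and 20 reads (9.02 and 2.61 FPKM). The related carrier gene Crabp1 was level at 24.1 and 22.5 FPKM. With 1 higher and 2 lower of 10, the list's median of 0.12 equalled that of all measured genes.

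Signalling genes were called in both directions. In the FGF and PDGF list 5 of 21 were higher and 2 lower, with a median of 0.36. Pdgfra, the receptor that marks primitive endoderm, had 55 reads and 0.91 FPKM in the vector cells and 877 reads and 14.7 FPKM in Lef1 P2. Its ligand gene Pdgfa was present in both and not called (34.5 and 45.04 FPKM), and Pdgfc, another ligand gene, was lower at 3.04 and 0.54 FPKM. Dusp4, a phosphatase that damps ERK signalling, was at 10.2 and 47.7 FPKM, 4.66-fold (4.03 to 5.40). Fgf3, a ligand made by parietal endoderm, was at 1.32 and 6.65 FPKM, from 14 and 70 reads. Fgf17, another FGF ligand gene, was among the 30 lowest ratios at 9.04 and 2.01 FPKM. Klb, the beta-klotho co-receptor for endocrine FGF ligands, was at 0.51 and 8.80 FPKM.

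For Nodal, activin and BMP genes 6 of 27 were higher and 2 lower, with a median of 0.10. The scaling changed that balance: 4 were higher and 4 lower with either rescaling. Smad7, the feedback inhibitor, was at 14.3 and 41.05 FPKM, and Bmper, a secreted BMP-binding protein gene, at 0.17 and 3.11 FPKM, from 6 and 107 reads. Inhbb, the activin B subunit gene, was at 9 and 2 FPKM and Gdf3, a Nodal-related ligand gene whose reads were not whole numbers, at 24.8 and 8.19 FPKM. Tdgf1, the Nodal co-receptor gene, was level at 539 and 517 FPKM. Of the immediate-early factor genes 4 of 18 were higher and 0 lower, with Egr1 at 4.60 and 17.2 FPKM, Jun at 3.18 and 9.93 FPKM and Fos at 1.59 and 5.43 FPKM. Among Hippo pathway genes the angiomotin genes Amot (2.78 and 12.9 FPKM) and Amotl2 (13.6 and 58.8 FPKM) were higher, as was the Yap target Ccn1 (6.16 and 27.3 FPKM), 3 of 20 with a median of 0.34.

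Wnt genes did not share a direction. Of 12 feedback and direct targets 3 were called higher and 3 lower, with a median of -0.33, and the median relative to all genes ran from -0.51 to 0.02 over the settings tried. Ephb3 (15.0 and 41.9 FPKM) and Ephb2 (4.71 and 13.3 FPKM), receptor kinase genes of the Wnt response in gut, were higher. Notum, which removes the lipid from Wnt proteins, was lower at 6.57 and 1.73 FPKM. The other lower members were Ccnd1 (14.7 and 3.79 FPKM) and Myc (15.4 and 4.10 FPKM). Dkk1, a secreted antagonist that binds Lrp5 and Lrp6, went from 4 to 90 reads, 22.4-fold (8.47 to 84.2). Sfrp4, another antagonist gene, was lower (7.36 and 2.28 FPKM). Among the TCF/LEF factors and partners Lef1 and Bcl9l, a beta-catenin co-activator gene at 2.95 and 7.82 FPKM, were called of 19, with a median of -0.05.

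Genes for growth were called lower, although most of the list stayed inside the 2-fold bounds. In the Myc and nucleolar list 6 of 30 were called lower, against 1.82% of all genes, and 0 higher, with a median of -0.42. Myc had 332 reads and 15.4 FPKM (13.8 to 17.1) in the vector cells and 88 reads and 4.10 FPKM (3.29 to 5.05) in Lef1 P2. Ncl, the abundant nucleolar protein nucleolin, was at 306 FPKM (303 to 310) and 144 FPKM (141 to 147). The ribosome assembly genes Bop1 (67.6 and 29.5 FPKM) and Rcl1 (52.4 and 25.2 FPKM) were lower too. So were 2 enzyme genes of polyamine synthesis, Odc1 (390 and 170 FPKM, not whole reads) and Srm (145 and 69.9 FPKM). Npm1, the most abundant nucleolar gene listed, was at 1964 and 1356 FPKM and was not called.

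DNA replication genes had a median of -0.47, with 2 of 36 ratios above 0, but a single call. That gene was Pola1, the catalytic subunit of the polymerase that starts each strand, at 24.9 FPKM (23.6 to 26.4) and 8.89 FPKM (8.07 to 9.77). Pcna, the sliding clamp gene, was at 290 and 173 FPKM and Mcm7, a helicase subunit gene, at 226 and 140 FPKM, neither called. The respiratory chain list had 0 calls of 37 and a median of -0.20. Heat shock genes had a median of -0.21, with 2 (9.09%) lower and 1 (4.55%) higher of 22. Over all genes 1.82% were lower and 6.49% higher. Hspd1, the mitochondrial chaperonin gene, was at 489 FPKM (480 to 499) and 215 FPKM (209 to 222), while Cryab, a small heat shock gene, was the higher one at 7.21 and 19.2 FPKM. The DNA methylation list had 0 calls of 15 and a median of -0.33, with its most abundant member, Trim28, at 621 and 354 FPKM.

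Hypoxia and glucose genes leaned the other way, with 7 of 36 higher, 0 lower and a median of 0.56. Pygl, the liver form of glycogen phosphorylase, had 50 reads and 1.96 FPKM (1.45 to 2.58) in vector P2 against 441 reads and 17.4 FPKM (15.8 to 19.1) in Lef1 P2, 8.88-fold (6.62 to 12.2). Gapdh, the most abundant gene in the list, was not called at 4056 and 3417 FPKM. In the cholesterol and fatty acid list Scd1, a desaturase gene, was the only call of 26.

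The plot of all gene lists shows where each median falls.

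**Figure D4:**
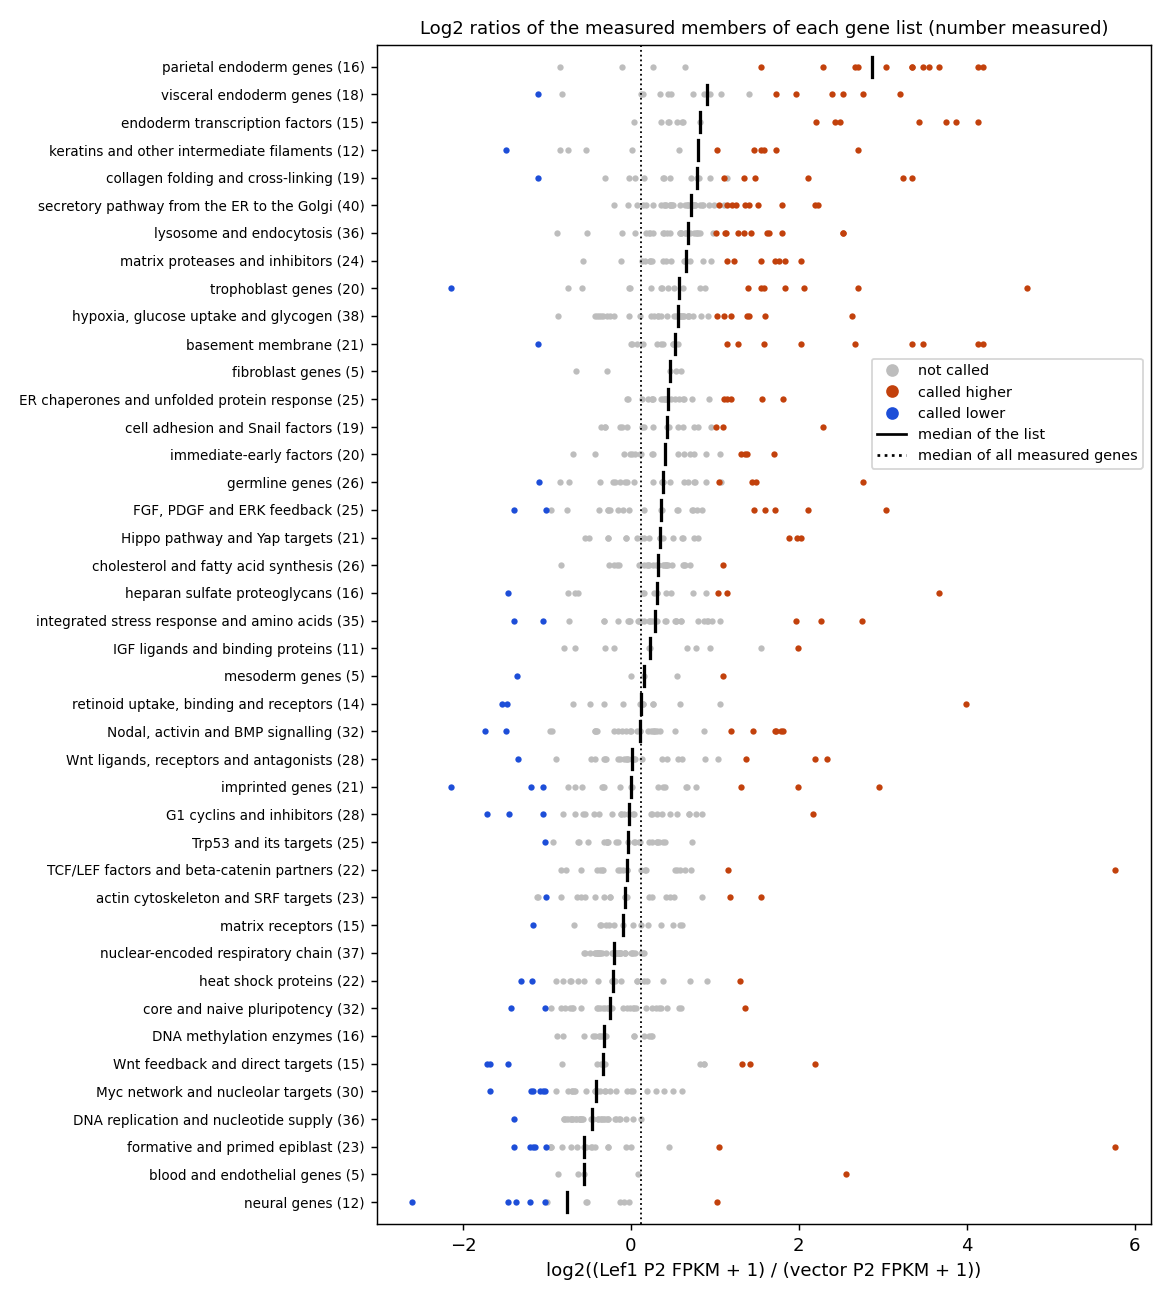
Each row is a gene list, each point a measured member placed by its log2((Lef1 P2 FPKM + 1)/(vector P2 FPKM + 1)), with the black bar at the list's median and the dotted line at 0.12, the median of all measured genes. Parietal endoderm has the highest median (2.87) and neural genes the lowest (-0.77), and in most lists grey points that were not called outnumber the coloured ones.

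The medians of the stem cell and neural lists lay below that of all genes. In the pluripotency list 1 of 32 was higher, Tbx3, a T-box factor that can also drive endoderm (29.6 and 77.6 FPKM), and 2 were lower, with a median of -0.25. Of 22 formative and primed genes 2 were higher, Otx2 and the introduced Lef1 itself, and 5 lower, with a median of -0.56. With median-of-ratios rescaling 1 was higher and 8 were lower. Sox4 (14.0 and 5.66 FPKM) and Sox11 (5.35 and 1.76 FPKM), related SoxC factors, were among the 5. In the neural list 5 of 10 were lower and 1 higher, with a median of -0.77, and Stmn3, a neuronal tubulin-binding protein gene, was at 7.34 and 2.03 FPKM. These lists overlap. Of the lower neural members Gbx2 is also counted in the pluripotency list and Sox11 in the formative list. The higher member, Nes, is also counted with the intermediate filaments. The trophoblast list had 7 of 13 higher and 1 lower. Apart from 3 keratins and Ly6a, these were Elf3, an epithelial Ets factor gene at 13.3 and 58.5 FPKM, Gata2 at 0.68 and 5.01 FPKM and Esx1 at 0.90 and 4 FPKM. Mesoderm genes were scarce, with 5 of 24 measured. Tcf15, an early mesoderm and epiblast factor gene, was lower at 78.1 and 29.9 FPKM.

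The remaining lists were split or nearly without calls. Their counts are small and stand beside 6.49% higher and 1.82% lower over all genes, with no test. Among G1 cyclins and their inhibitors 1 of 27 was higher and 3 were lower, with a median of -0.03, and the D-type cyclins differed in direction: Ccnd2 had 26 reads in vector P2 and 298 in Lef1 P2, Ccnd1 509 and 130, while Ccnd3 was not called at 170.1 and 156 FPKM. The growth inhibitor gene Cdkn1c was lower too, at 31.9 and 14.9 FPKM. Imprinted genes gave 3 higher and 3 lower of 20. The list of Trp53 and its targets had 1 lower of 23 and a median of -0.04, and Cdkn1a, its best known target, was at 55.3 and 65.8 FPKM. For the growth factor Igf2 and its partners 1 of 9 was higher, Igf2 itself, at 3.23 FPKM (2.66 to 3.89) and 15.9 FPKM (14.6 to 17.3). Of Wnt ligands, receptors and antagonists 3 of 15 were higher and 1 lower, with a median of 0.01. Germline genes had 4 of 22 higher and 1 lower, with a median of 0.38. In the fibroblast list 0 of 3 were called, and in the blood and endothelial list 1 of 3.

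Runx1, the blood factor gene, had 22 reads and 0.35 FPKM (0.219 to 0.530) in vector P2 against 450 reads and 7 FPKM (6.37 to 7.68) in Lef1 P2. Of the other blood and endothelial markers 0 were called. Ptprc was at 0, Tal1 at 0.21 and 0.03 FPKM, Cd34 at 1.78 and 0.79 FPKM, and the endothelial cadherin gene Cdh5 at 0.11 and 0.99 FPKM. The part of other cell types in the endoderm result was not tested beyond these marker sums.

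Several of the highest ratios belonged to no list. Vnn1, a pantetheinase gene, had 9 reads and 0.41 FPKM in vector P2 and 274 reads and 12.7 FPKM in Lef1 P2, 30.9-fold (16.1 to 68.4). Nostrin, a trafficking factor for nitric oxide synthase whose upstream bases are printed with those of Cubn, had 4 and 177 reads, 43.9-fold (16.8 to 163). S1pr1, a receptor for sphingosine 1-phosphate, had 3 and 161 reads. With so few reads in the vector cells the lower bounds of these folds are the safer values. Cemip, which breaks down hyaluronan, was at 0.43 and 10.6 FPKM and Smarca2, a chromatin remodelling ATPase gene, at 0.32 and 7.55 FPKM. The amyloid precursor gene App started at a readily measured level, 8.21 FPKM (7.22 to 9.30), and was at 56.4 FPKM (53.8 to 59.2) in Lef1 P2. H2-Ab1, a class II histocompatibility gene, went from 4 to 107 reads. Pglyrp1, a peptidoglycan recognition protein gene, was not listed in vector P2 and had 24 reads in Lef1 P2. Against a floor of 3 reads that is 8.05-fold higher, with counting error left out.

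Among the lowest ratios were 2 abundant genes for interferon-induced membrane proteins. Ifitm1 was at 193 FPKM (182 to 205) in vector P2 against 47.1 FPKM (41.7 to 53.0) in Lef1 P2, 4.10-fold lower. Ifitm3 was at 171 and 52.04 FPKM, 3.28-fold lower. Enzyme genes included Hsd17b14, a hydroxysteroid dehydrogenase, with 891 and 145 reads, and Adk, the adenosine kinase gene, at 38.8 and 10.9 FPKM. Crmp1, a microtubule-binding protein of growing neurites, was at 15.5 and 3.61 FPKM. Gap43, the growth-cone protein gene, had 59 reads in vector P2. No row of Lef1 P2 lists it. Against a floor of 3 reads there it was 19.5-fold lower, a value that leaves out counting error. Kcnj3, a potassium channel gene, was at 4.50 and 0.57 FPKM. Akr1b3, Gm9833, Apoo-ps and Sap25 also rank here, but their expected reads were not whole numbers, so their levels are less certain than the counting error shows. The same holds for Ephb2, Scd1 and Gapdh above.

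At passage 5 the Lef1 library had 214 FPKM of Lef1, above the 135 FPKM of passage 2. The passage 5 library is set beside the same vector library, so the values are listed without a comparison of their own. In the order vector P2, Lef1 P2, Lef1 P5, Gata4 was at 2.82, 66.0 and 16.3 FPKM. Pth1r was at 1.09, 23.4 and 2.56 FPKM, and Cubn at 2.68, 33.0 and 2.53 FPKM. Creb3l2 was at 3.82, 21.0 and 6.98 FPKM and Myc at 15.4, 4.10 and 14.4 FPKM. H19, an imprinted RNA of endoderm and mesoderm, was at 1.07, 15.1 and 11.3 FPKM. Tcf15 was at 78.1, 29.9 and 32.2 FPKM and Inhbb at 9, 2 and 1.49 FPKM. The Lamb1 to Lamc1 ratio was 0.327, 1.13 and 0.534 in the same order.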

How the data were processed

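Total RNA of 3 cultures was sequenced, with 1 library per group, and the libraries of passage 2 were compared. Per the file headers, the deposited tables list each Entrez gene with its length, expected count and FPKM value. The aligner Bowtie 0.12.2 and the mm8 build are named, per the submitters' processing notes. Not given in the sources used here are the counting program, the use of strand and the handling of reads that match several genes. The deposited expected counts were not whole in 8.61% of the genes listed in vector P2 and 8.56% in Lef1 P2 (tolerance 0.001 reads).

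The deposited FPKM values were used as they stand, with a missing gene taken as 0. The ratio was log2((Lef1 P2 + 1)/(vector P2 + 1)), where the pseudocount of 1 FPKM shrinks the ratios of genes with low values. Calls needed a log2 ratio of at least 1 in size, 3 FPKM and 20 expected reads. A gene not listed in a library got a floor of 3 reads there. At this depth 3 reads on 1 kb are worth 0.325 FPKM (vector P2) and 0.327 FPKM (Lef1 P2). Symbols came from RefSeq through the Entrez numbers (17951 of 17997 matched). GRCm38.p6 differs from mm8 and served only for names, promoters and neighbouring genes.

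The comparison, the 42 gene lists (1034 genes, 81 of them in more than 1 list) and the named genes were chosen with earlier results of these data known. Names in the text were drawn from Lef1, Gata4 and Gata6, the 40 highest and 30 lowest ratios, the called members of each list (the 8 largest where more were called), up to 3 abundant members not called, and the cell type markers. Sec23a, Kdelr3, Npc1, Lamp2, Hspg2, Col18a1, Plod1, Plod3, Pdgfa, Mcm7, Cdkn1a, Tmsb4x and the genes at the threshold were named after their values were seen. Python 3.11.15 with pandas 2.3.3 and scipy 1.17.1 was used, and edgeR 4.0.16 gave TMM factors only. The scripts were tested on simulated data. Other pseudocounts, minimum levels, scalings, fold thresholds and filters were tried. A result on 1 gene is not reported here.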

Additional observations from a re-analysis of the deposited data

How the results depend on the processing

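With 1 library per group, differences between cultures were not measured, and nothing here tells an effect of Lef1 from a difference between these cultures. No paired analysis was possible because each group has a single library. For the same reason no library could be left out. The number of higher genes (691) became 245 with a pseudocount of 5 FPKM, 357 with a minimum of 10 FPKM, 1225 with CPM, 1864 at 1.5-fold and 106 at 4-fold. The number of lower genes (194) became 83 with a pseudocount of 5 FPKM, 121 with a minimum of 10 FPKM, 298 with median-of-ratios rescaling, 301 with TMM, 855 at 1.5-fold and 9 at 4-fold. The other settings stayed within 1.5 times, from 500 to 944 higher and from 168 to 281 lower. More genes were higher than lower in each setting. Of the 691 and 194 genes, 677 and 189 were also called with CPM. Of 320 genes open to naming, the log2 ratio moved beyond its counting interval for 121 with median-of-ratios rescaling, 127 with TMM, 137 with a pseudocount of 5 FPKM, 38 with 0.1 FPKM and 17 with CPM. The medians of 4 lists relative to all genes changed sign, those for retinoids, Nodal and BMP, Wnt targets and mesoderm. Weakly expressed genes are limited by depth, as with S1pr1, at 3 reads in vector P2.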

Other observations

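Some abundant genes outside the lists were also called, and the genes given here were chosen after their values were seen. The alpha-tubulin gene Tuba4a was lower, at 109 FPKM in the vector cells and 39.4 FPKM in Lef1 P2. Tuba1b (1099 and 479 FPKM) and Tuba1a (279 and 110.0 FPKM) were called lower too, but their reads were not whole numbers, so the levels of these near-identical genes are uncertain. Stmn1, the tubulin-binding protein stathmin, was at 513 and 179 FPKM. The histone chaperone genes Set (504 and 229 FPKM) and Nasp (275 and 123 FPKM) were lower, as was the splicing factor gene Hnrnpl (320 and 125 FPKM). Prdx1, a peroxide-removing enzyme gene, was at 718 and 317 FPKM.

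On the higher side Fabp3, a fatty acid carrier gene, was at 165 and 549 FPKM and Bsg, the membrane glycoprotein basigin, at 227 and 487 FPKM. Secreted and transported proteins included Gpx3, the extracellular glutathione peroxidase, at 26.8 and 108 FPKM, Apoc1, an apolipoprotein, at 43.9 and 118 FPKM, and Rcn3, a calcium-binding protein of the endoplasmic reticulum, at 30.05 and 82.0 FPKM. The antigen presentation gene B2m was at 20.5 and 52.7 FPKM. Its partner gene H2-K1, at 31.0 and 65.6 FPKM, belongs to a family of near copies and its reads were not whole.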
